A study of Mus musculus with 4 samples.

Results

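Intraflagellar transport (IFT) and BBSome genes were examined in whole trachea and whole oviduct of mice labelled null for Gemc1 and of wild-type (WT) mice. The 33 genes were chosen as a list of symbols, 14 of the IFT-B complex, 6 of IFT-A, 5 of the IFT motors and 8 of the BBSome, out of 30702 genes named on the array. Each of the 33 was read by 1 probe set, and all of them passed the level filter in both tissues. The groups were null trachea and WT trachea from male mice of 39 days, and null oviduct and WT oviduct from female mice of 65 days, all of the strain mixed C57BL/6 x 129, freshly dissected and untreated, with 1 Affymetrix array each. Tissue therefore cannot be told apart from sex and age, and the sources used here do not say whether an array holds RNA of 1 animal or of several.

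Cilia are built and maintained by trains that run along the axoneme. IFT-B carries cargo such as tubulin toward the tip with kinesin-II, IFT-A and dynein-2 serve the return, and the BBSome, a coat-like complex named after Bardet-Biedl syndrome, moves membrane proteins in and out of the cilium. Primary cilia, which most cell types bear, use this machinery as well as the motile cilia of multiciliated cells in the airway and the oviduct. Gemc1, whose current symbol is Gmnc, encodes a geminin relative known to start the multiciliated cell programme.

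All levels are log2 RMA signals, and each difference subtracts the WT level from that of the array labelled Gemc1-null (called null-labelled below) within a tissue. Each group is a single array, so a difference within a tissue could not be tested and carries no error, and "lower" and "higher" describe these arrays only. Gmnc stood at 4.63 on the null-labelled trachea array and 5.90 on the WT trachea array, but at 8.86 on the null-labelled oviduct array and 6.11 on the WT oviduct array. Both trachea values lie below the negative-control medians of their arrays (5.74 and 5.99), so the trachea arrays do not check the label. The oviduct value goes against its label. The sources used here do not say which exons were removed, and a probe set elsewhere in Gmnc could not check the label. Every direction below rests on the labels. In bulk tissue, fewer cells of a type and less RNA per cell cannot be told apart.

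The tissue labels were set against their markers. Ovgp1, the oviductal glycoprotein, reached 12.84 on the null-labelled and 12.79 on the WT oviduct array, but 6.56 on the null-labelled and 6.45 on the WT trachea array. Pax8 and Wt1 of the same list were also higher in WT oviduct than in WT trachea, whereas Muc16 and Muc1 were higher in WT trachea (by 2.37 and 1.34). The airway secretory gene Bpifa1 had 6.02 on the null-labelled trachea array, against 12.99 on the WT one. It had 4.68 and 4.93 on the null-labelled and WT oviduct arrays. The null-labelled trachea value lay not far above the 5.74 median of that array's negative controls. Bpifa1 thus set the WT trachea array clearly apart from the oviduct arrays, but the null-labelled one only slightly. The 2 trachea arrays also differed in markers of other cell types, so the trachea differences below compare tissue pieces of unlike make-up. Krt4, of the basal and squamous list, stood at 13.48 on the null-labelled and 7.18 on the WT trachea array. Myh1 of skeletal muscle stood at 12.42 and 5.52 on these arrays. Of skeletal muscle genes 8 of 8 were at least 2-fold higher on the null-labelled array (summed linear signal 35400 against 1160 on the WT array, where 4 of the 8 lay below the negative-control median), and of basal and squamous epithelial genes 7 of 7 were (29800 against 1210). At least 2-fold lower there were airway secretory genes (8 of 8, 3960 against 45200), general epithelial genes (8 of 9, 2070 against 5690), lymphocyte genes (5 of 5, 311 against 5550) and adipocyte genes (5 of 5, 649 against 5040). Smooth muscle genes were mixed, with 3 of 5 past 2-fold lower and 1 past 2-fold higher (6100 against 8950). On the oviduct arrays 5 of 5 ovarian somatic genes were past 2-fold lower (499 against 11900), while 0 of 9 general epithelial genes passed 2-fold (9930 against 8410). The part of these differences in the values of IFT and BBSome genes was not tested.

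Most IFT and BBSome genes were slightly lower on the null-labelled array. In trachea 31 of 33 had a difference below 0, where 47.3% of all 20164 genes past the filter did, and the median difference was -0.47, against 0.03 for all genes. In oviduct 31 of 33 were below 0, where 39.7% of 19713 genes were, with a median of -0.32 against 0.05. Few of these differences were large. In trachea 3 of 33 were at least 2-fold lower, a share close to the 7.74% of all genes, and 12 of 33 were at least 1.5-fold lower, where 13.3% of all genes were. The oviduct count past 2-fold was 0 of 33 (2.75% of all genes), and 3 of 33 were at least 1.5-fold lower (5.22%). No IFT or BBSome gene was at least 1.5-fold higher in either tissue, where 11.8% of all genes were in trachea and 2.82% in oviduct; at least 2-fold higher were 6.33% and 0.807%. The 2 genes above 0 in oviduct compare with 60.3% of all genes there. The plot of levels by gene shows each pair of arrays.

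**Figure D1:**
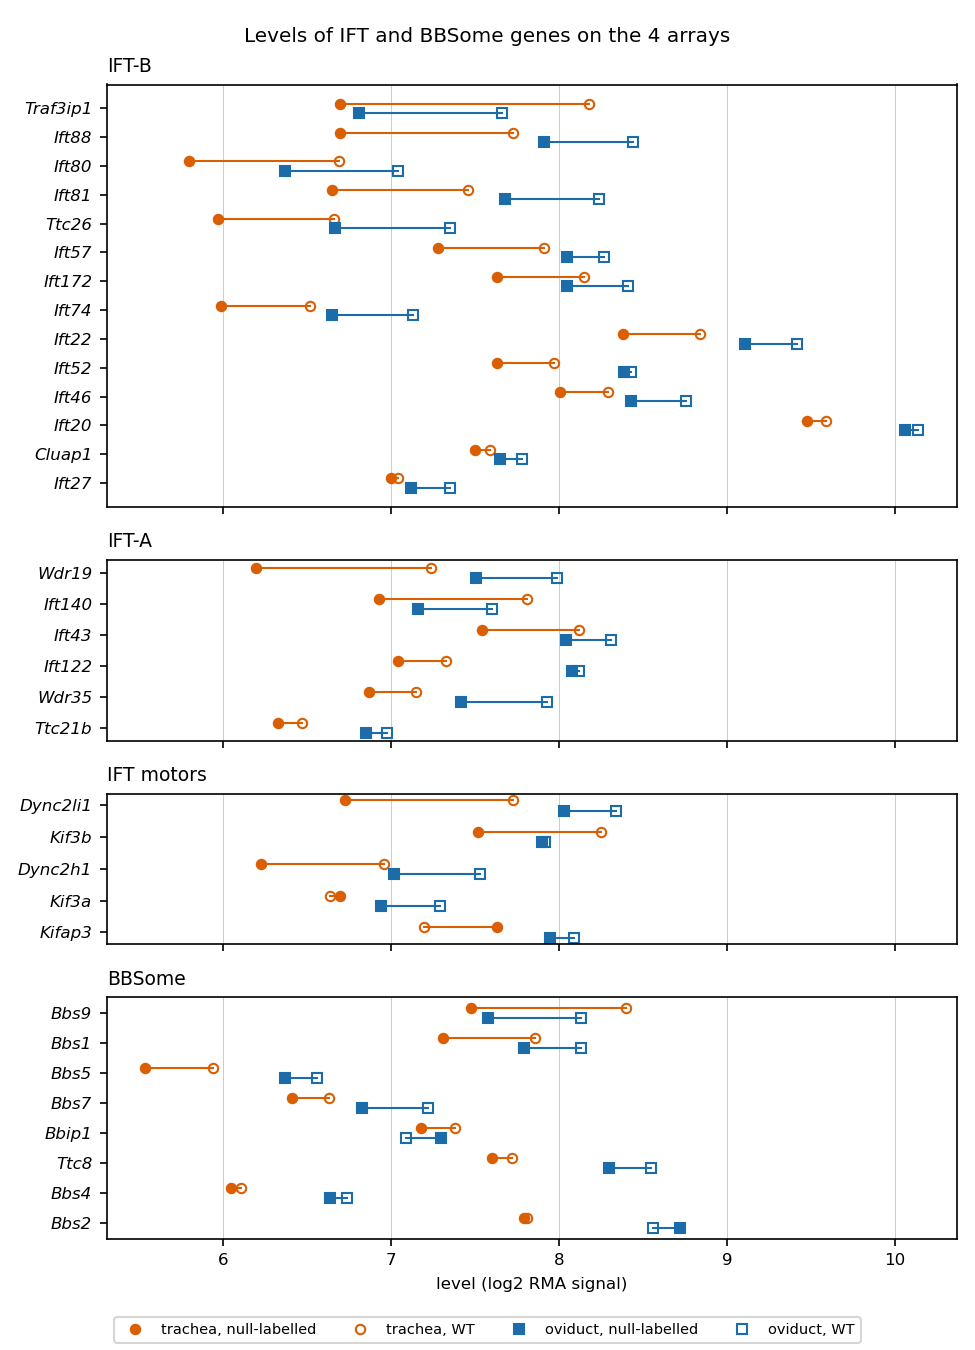
Level of each gene (log2 RMA signal, horizontal axis) on the 4 arrays, 1 point per array, with a line joining the null-labelled (filled) and WT (open) array of a tissue. In 31 of 33 genes the filled point lies left of the open one in trachea, and in 31 of 33 in oviduct; levels of different genes come from different probes and are not comparable.

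Promoters of 29 of the 33 genes were held by the RefSeq promoter table of build GRCm38.p6, which covers 250 bases before and 50 after a gene's start; Ift80, Ift81, Ift122 and Dync2li1 had no entry. RFX transcription factors are known to bind the X-box, a pair of half-sites near the starts of many cilia genes. The half-site GTTGCC, read on both strands, occurred in 13 of 29 promoters (44.8%), in 12.5% of 32851 promoters in all and in 13.2% of 16553 promoters of genes past the filter. The X-box pattern, read on both strands, is looser and need not hold GTTGCC. It occurred in 17 of 29 (58.6%), against 34.7% of all promoters and 33.8% of those of genes past the filter. Transition zone genes held them in 43.5% and 73.9% of 23 promoters, and motile cilia genes in 45.0% and 65.0% of 20. These 23 promoters belong to 16 of 19 listed transition zone genes, and the 20 to 17 of 24 listed motile cilia genes. Some of these genes therefore count with several promoters, whereas the 29 promoters belong to 29 genes. Counted by gene, the half-site occurred in 10 of 16 transition zone and 8 of 17 motile cilia genes. Among all genes with a promoter it occurred in 3821 of 27025, and among those past the filter in 2000 of 13193. The X-box pattern occurred in 14 of 16 transition zone and 12 of 17 motile cilia genes. Of all genes it occurred in 10240, and of those past the filter in 4989. The median GC content was 57.7% for the 29 promoters, 52.7% for all and 59.0% for those of genes past the filter.

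The 150 bases before the start of 5 of these genes are printed in lower case, 5′ to 3′ on the gene's strand, with capitals marking GTTGCC or an X-box match. They were picked after the values were seen, because they hold a match close to the start in genes that are lower in both tissues (Traf3ip1, Ttc26, Ift57, Wdr19) or in trachea not lower (Kif3a).
Traf3ip1 (GRCm38.p6 chr1:91494518-91494667, + strand): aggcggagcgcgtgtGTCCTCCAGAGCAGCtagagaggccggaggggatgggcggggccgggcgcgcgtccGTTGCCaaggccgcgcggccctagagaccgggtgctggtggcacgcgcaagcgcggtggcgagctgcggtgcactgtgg
Ttc26 (GRCm38.p6 chr6:38381374-38381523, + strand): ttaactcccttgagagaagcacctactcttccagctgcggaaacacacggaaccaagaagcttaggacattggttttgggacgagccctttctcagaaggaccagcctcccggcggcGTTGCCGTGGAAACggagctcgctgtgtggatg
Ift57 (GRCm38.p6 chr16:49699144-49699293, + strand): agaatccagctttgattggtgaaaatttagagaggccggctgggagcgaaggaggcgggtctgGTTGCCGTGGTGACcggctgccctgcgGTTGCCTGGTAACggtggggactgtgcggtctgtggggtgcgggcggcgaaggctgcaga
Wdr19 (GRCm38.p6 chr5:65199546-65199695, + strand): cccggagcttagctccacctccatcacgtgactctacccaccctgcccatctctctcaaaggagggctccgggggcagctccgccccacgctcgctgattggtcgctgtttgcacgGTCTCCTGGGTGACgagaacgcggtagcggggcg
Kif3a (GRCm38.p6 chr11:53567219-53567368, + strand): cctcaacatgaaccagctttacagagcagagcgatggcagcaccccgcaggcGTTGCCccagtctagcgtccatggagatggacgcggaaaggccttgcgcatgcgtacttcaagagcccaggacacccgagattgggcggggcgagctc
Ift57 holds a pair of matches, beginning 87 and 60 bases before the start, and within these 150 bases of Ttc26 and Ift57 each half-site is the first part of an X-box match. The 13 genes with a half-site had a median difference of -0.55 in trachea and -0.38 in oviduct, and the 16 without one -0.24 and -0.13, with overlapping ranges (-1.49 to 0.06 against -1.04 to 0.42 in trachea). For the X-box the medians with and without a match were -0.47 and -0.35 in trachea and -0.27 and -0.35 in oviduct. A match is a description of these letters and no evidence of binding.

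Among the RFX factors, Rfx3 stood at 6.78 on the null-labelled trachea array and 7.72 on the WT one, and at 6.97 and 7.87 on the null-labelled and WT oviduct arrays. Rfx2 stood at 8.29 and 8.48 on the null-labelled and WT trachea arrays, and at 7.87 and 8.74 on those of oviduct. Rfx3 was thus lower by a like amount in both tissues, and Rfx2 mainly in oviduct. Of the other regulators of the multiciliated programme, Myb differed by -2.39 in trachea and -2.19 in oviduct, Mcidas by -0.56 and -0.23, and Trp73 by 0.17 and -1.02.

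IFT-B, the anterograde complex, was lower in all 14 genes in both tissues, with a median difference of -0.52 in trachea and -0.35 in oviduct. It also held the largest difference of the 33 genes. Traf3ip1, which encodes IFT54, a subunit of the peripheral part that binds kinesin-II, stood at 6.70 on the null-labelled trachea array and 8.18 on the WT one. In oviduct it stood at 6.81 on the null-labelled array and 7.66 on the WT one. Both null-labelled arrays lay below both WT arrays, 2.8-fold lower in trachea and 1.81-fold lower in oviduct, and Traf3ip1 was also one of 5 genes higher in WT trachea than in WT oviduct.

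The other peripheral (IFT-B2) subunits ranged in trachea from -0.89 (Ift80) to -0.09 (Cluap1). Ift80, whose human gene is mutated in a skeletal ciliopathy, stood at 5.80 on the null-labelled trachea array and 6.69 on the WT one, and at 6.37 and 7.04 on the null-labelled and WT oviduct arrays. It was 1.85-fold lower in trachea and 1.59-fold lower in oviduct. Its null-labelled trachea level was close to the 5.74 median of that array's negative controls, and its trachea fold is limited by background. Ift57 had a difference of -0.63 in trachea and -0.22 in oviduct, and Ift172, the largest IFT-B subunit, by -0.52 and -0.36. Ift20, the subunit that also resides at the Golgi, was nearly level, with 9.48 on the null-labelled and 9.59 on the WT trachea array, and 10.06 and 10.14 on the null-labelled and WT oviduct arrays. Cluap1, which encodes IFT38, was nearly level too, with differences of -0.09 and -0.13.

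Of the core (IFT-B1) subunits, Ift88, the gene of the Tg737 polycystic kidney mouse, stood at 6.70 on the null-labelled trachea array and 7.73 on the WT one. In oviduct it stood at 7.91 on the null-labelled array and 8.44 on the WT one. It was 2.04-fold lower in trachea, only just past 2-fold, and 1.45-fold lower in oviduct. Ift81, which binds tubulin together with IFT74, stood at 6.65 on the null-labelled and 7.46 on the WT trachea array, and at 7.68 and 8.24 on the null-labelled and WT oviduct arrays. Its partner Ift74 had 5.99 and 6.52 on the null-labelled and WT trachea arrays, and 6.65 and 7.13 on those of oviduct. The partners were thus both lower in both tissues, by 1.75-fold and 1.44-fold in trachea and by 1.47-fold and 1.39-fold in oviduct.

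Ttc26, which encodes IFT56, had the same difference in both tissues. It stood at 5.97 on the null-labelled trachea array and 6.66 on the WT one, and at 6.67 and 7.35 on the null-labelled and WT oviduct arrays, 1.61-fold lower in trachea and 1.6-fold lower in oviduct. Its null-labelled trachea level, like that of Ift74 (5.99), lay not far above the 5.74 median of that array's negative controls. Background may therefore limit the trachea folds of Ttc26 and Ift74. Traf3ip1, Ift80 and Ttc26 were the 3 genes at least 1.5-fold lower in both tissues, where 2.24% of the 18883 genes past the filter in both were. The remaining core subunits differed less. Ift22, a small GTPase-like protein, differed by -0.47 and -0.32, Ift46 by -0.28 and -0.33, and Ift52 by -0.35 and -0.04. Ift27, a GTPase that links IFT-B to BBSome exit, differed by -0.04 in trachea, with 7.0 on the null-labelled and 7.04 on the WT array, and by -0.23 in oviduct.

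IFT-A, the retrograde complex, was lower in 6 of 6 genes in both tissues (median -0.43 in trachea and -0.35 in oviduct). Wdr19, which encodes the core subunit IFT144, stood at 6.20 on the null-labelled trachea array and 7.24 on the WT one. In oviduct it stood at 7.51 on the null-labelled array and 7.99 on the WT one. The null-labelled array was 2.06-fold lower in trachea and 1.4-fold lower in oviduct, and the tissues did not overlap: both oviduct arrays lay above both trachea arrays. Ift140, also of the core, stood at 6.93 and 7.81 on the null-labelled and WT trachea arrays, and at 7.16 and 7.60 on those of oviduct, so that both null-labelled arrays were the low ones. Ift122, the other core subunit, differed by -0.30 in trachea and -0.05 in oviduct, with 8.08 and 8.12 on the null-labelled and WT oviduct arrays.

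Among the peripheral IFT-A subunits, Ift43 differed by -0.57 in trachea and -0.27 in oviduct. Wdr35, which encodes IFT121, had the larger difference in oviduct, with 7.42 on the null-labelled and 7.93 on the WT array (1.43-fold lower), against 6.87 and 7.15 on the null-labelled and WT trachea arrays (1.22-fold lower). Ttc21b, which encodes IFT139, differed by -0.13 in each tissue.

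Of the genes of dynein-2, the return motor, the 33 include 2, and both were lower in both tissues. Dync2li1, its light intermediate chain, stood at 6.73 on the null-labelled trachea array and 7.73 on the WT one, and at 8.03 and 8.34 on the null-labelled and WT oviduct arrays. Its trachea difference, 1.995-fold, stopped just short of 2-fold, and in oviduct it was 1.24-fold lower. Dync2h1, the heavy chain, stood at 6.23 and 6.96 on the null-labelled and WT trachea arrays and at 7.02 and 7.53 on those of oviduct. It was 1.65-fold lower in trachea and 1.42-fold lower in oviduct.

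The kinesin-II genes, which encode the outbound motor, went apart. Kif3b, one of the motor chains, stood at 7.52 on the null-labelled trachea array and 8.25 on the WT one, but at 7.90 and 7.92 on the null-labelled and WT oviduct arrays. Kif3a, its partner chain, stood at 6.70 and 6.64 on the null-labelled and WT trachea arrays, and at 6.94 and 7.29 on those of oviduct. Kifap3, the associated protein KAP3, had the largest difference above 0 of the 33 genes: 7.63 on the null-labelled trachea array and 7.20 on the WT one, 1.34-fold higher, with 7.95 and 8.09 on the null-labelled and WT oviduct arrays. Kif3b was 1.66-fold lower in trachea and nearly level in oviduct (-0.01), and the 3 subunits of 1 motor differed in trachea by -0.73, 0.06 and 0.42. Kinesin-II is also known to serve transport outside cilia, and the part of such use in these values was not tested.

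The BBSome had the smallest medians of the 4 groups, -0.21 in trachea and -0.22 in oviduct, with 8 of 8 genes below 0 in trachea and 6 of 8 in oviduct. Bbs9, a platform subunit, had the largest difference of the 8 genes in both tissues. It stood at 7.48 on the null-labelled trachea array and 8.40 on the WT one, and at 7.58 and 8.13 on the null-labelled and WT oviduct arrays. Both WT arrays lay above both null-labelled arrays, 1.89-fold in trachea and 1.47-fold in oviduct. Bbs1, the gene most often mutated in human Bardet-Biedl syndrome together with BBS10, stood at 7.31 and 7.86 on the null-labelled and WT trachea arrays, and at 7.79 and 8.13 on those of oviduct. Its differences were -0.55 in trachea and -0.34 in oviduct.

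Of the other BBSome subunits, Bbs2, Bbs4 and Ttc8 were near level in trachea. Bbs2 had 7.79 on the null-labelled and 7.81 on the WT trachea array, and 8.72 and 8.56 on the null-labelled and WT oviduct arrays. Bbs4 differed by -0.05 and -0.10, Ttc8, which encodes BBS8, by -0.12 and -0.25, and Bbs7, a close relative of BBS2 in structure, by -0.22 and -0.38. Bbs4 had 6.05 on the null-labelled and 6.11 on the WT trachea array, not far above their negative-control medians of 5.74 and 5.99. Background may therefore limit its difference there. Bbs5 was the only one of the 33 genes below a negative-control median: it stood at 5.54 on the null-labelled and 5.94 on the WT trachea array, where the medians were 5.74 and 5.99, so that no fold is given there, and at 6.37 and 6.56 on the null-labelled and WT oviduct arrays. Bbip1, the smallest subunit, differed by -0.19 in trachea and 0.20 in oviduct. The Bbip1 locus overlaps Pdcd4 and Shoc2 in the RefSeq table, and which of their transcripts its probes read was not tested.

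The 4 groups were then set side by side. In trachea the medians ran from the motors (-0.72) through IFT-B (-0.52) and IFT-A (-0.43) to the BBSome (-0.21), and in oviduct from IFT-B and IFT-A (both -0.35) through the motors (-0.31) to the BBSome (-0.22). At least 1.5-fold lower in trachea were 6 of 14 IFT-B genes, 2 of 6 IFT-A genes, 3 of 5 motor genes and 1 of 8 BBSome genes, the last a share close to the 13.3% of all genes. In oviduct these counts were 3, 0, 0 and 0, where 5.22% of all genes passed. The groups' ranges overlapped in both tissues (IFT-B -1.49 to -0.04, IFT-A -1.04 to -0.13, motors -1.0 to 0.42 and BBSome -0.92 to -0.02 in trachea), and with 1 array per condition the order of the groups has no test. The motor median in trachea rests on 5 genes, of which Kif3b (-0.73) lay with Dync2h1 (-0.72) while Kif3a and Kifap3 were above 0.

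**Figure D2:**
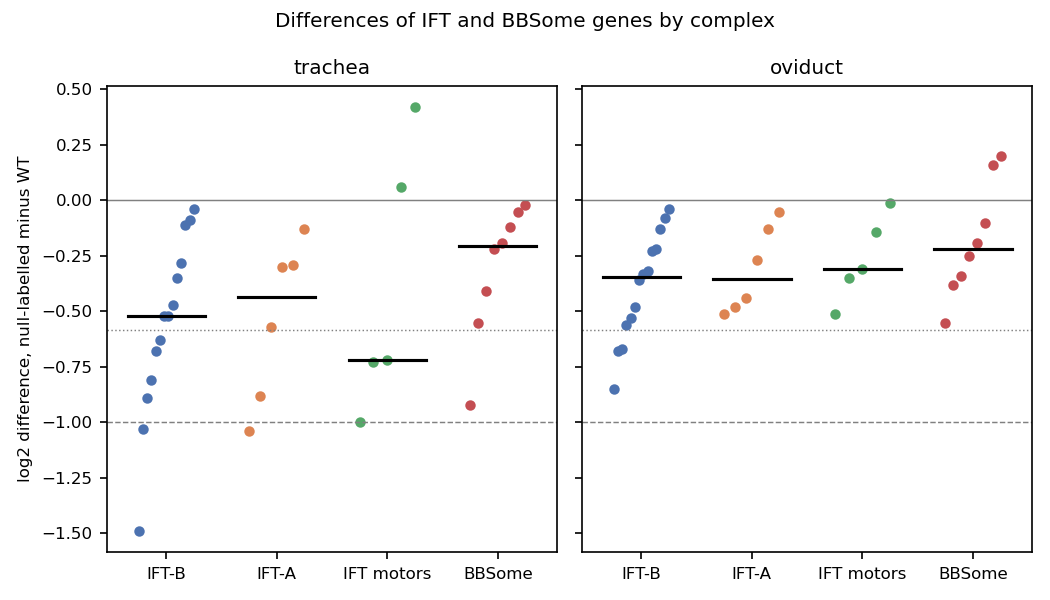
Log2 difference (null-labelled minus WT, vertical axis) of each gene in trachea (left) and oviduct (right), by complex; each point is a gene and each bar the median over the genes of a complex. Dotted and dashed lines mark 1.5-fold and 2-fold lower. IFT-B and IFT-A lie wholly below 0 in both tissues, and the BBSome medians, -0.21 and -0.22, are nearest to 0.

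Trachea and oviduct came from different mice and shared no array. Of the 33 genes, 29 were below 0 in both tissues, where 20.9% of 18883 genes were, and 24 of 33 had the lower difference in trachea, where 52.8% of genes did. At least 1.5-fold lower in trachea but not in oviduct were 9 genes, and 0 the other way round. Of all genes, 13.3% passed that line in trachea and 5.22% in oviduct, and 2.24% of the 18883 passed it in both. The share of all genes past it in 1 tissue alone was not counted, so the 9 and the 0 have no background of their own. Across the 33 genes, whose values all come from the same 4 arrays, the trachea and oviduct differences had a Pearson r of 0.674 and a Spearman rho of 0.627. The difference between the tissues itself has no test, since neither tissue had a replicate.

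**Figure D3:**
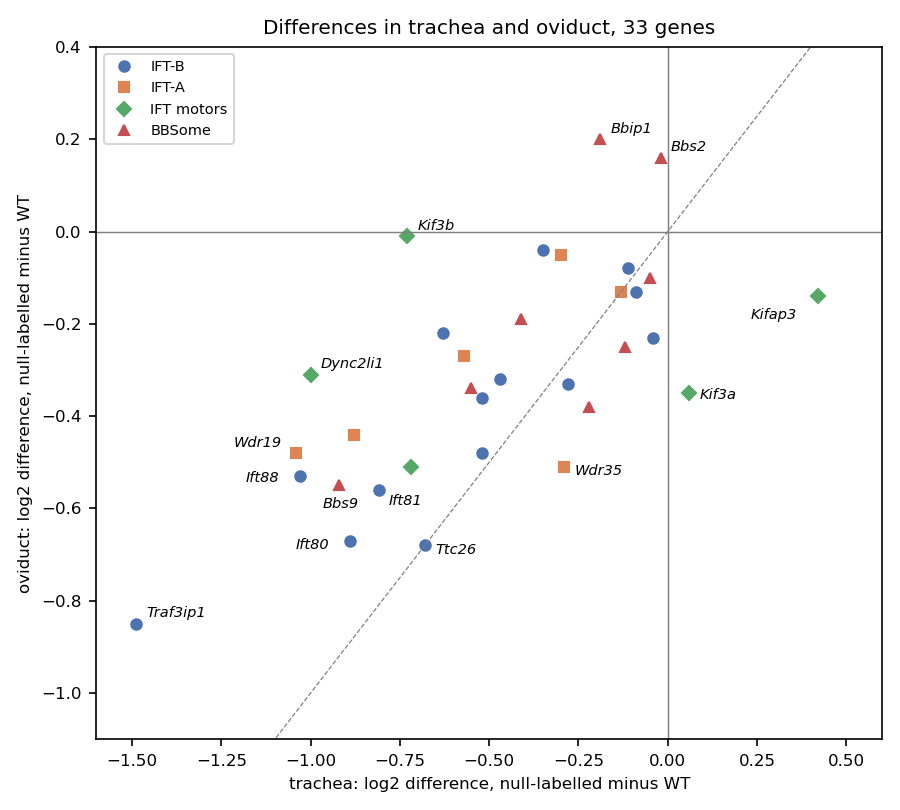
Log2 difference (null-labelled minus WT) in trachea (horizontal axis) and oviduct (vertical axis) for the 33 genes, 1 point per gene, marked by complex; the dashed line marks equal differences. Traf3ip1 is lowest on both axes (-1.49 and -0.85), 24 genes lie above the dashed line, and Kifap3 and Kif3a are above 0 in trachea alone.

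A joint fit of the 4 arrays, 2 per genotype and blocked by tissue, asked for a difference shared by both tissues. It has 1 residual degree of freedom. In limma 0 of the 33 genes passed a Benjamini-Hochberg adjusted p of 0.05 over 20994 genes, and 0 of all genes did (0.0% lower and 0.0% higher). The limma adjusted p of the 33 genes lay between 0.829 and 0.995. At an unadjusted p under 0.05 there were 9 of 33, all lower, where 2.7% of all genes were lower and 0.8% higher. They were Traf3ip1, Ift80, Ift88, Ift81, Ttc26, Ift74, Wdr19, Dync2h1 and Bbs9. Traf3ip1 had a shared log2 difference of -1.17 (SE 0.241, limma adjusted p 0.829) and was lower in 2 of 2 tissues. Ttc26, where the tissues were closest, had -0.68 (SE 0.148), and the adjusted p was again 0.829. A missed threshold in a fit of this size does not show that these genes were unchanged.

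In both genotypes IFT and BBSome genes were mostly lower in trachea than in oviduct. On the null-labelled arrays 33 of 33 were lower in trachea, where 54.0% of 20994 genes were, with a median of -0.57 (trachea minus oviduct). On the WT arrays 28 of 33 were, where 52.6% of genes were, with the same median of -0.57. The null-labelled trachea and oviduct arrays also differed in summed signal of skeletal muscle genes (35400 against 844) and general epithelial genes (2070 against 9930). The part of such differences in cell make-up in these values was not tested. At least 1.5-fold lower in trachea were 15 genes among the null-labelled arrays (12.8% of all genes) and 15 among the WT arrays (10.6%), and 0 were 1.5-fold higher (12.9% and 11.3%). Among WT arrays the largest differences below 0 were those of Kifap3 (-0.88), Ttc8 (-0.83), Ift122 (-0.79), Ift81 (-0.78) and Wdr35 (-0.78). The 5 genes higher in WT trachea were Traf3ip1 (0.52), Kif3b (0.33), Bbip1 (0.29), Bbs9 (0.27) and Ift140 (0.21). Transition zone genes were also mostly lower in trachea, 15 of 17 among the null-labelled arrays (median -0.46) and 16 of 17 among the WT arrays (median -0.31). Motile cilia genes had medians of -0.11 among the null-labelled arrays and -0.39 among the WT arrays.

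**Figure D4:**
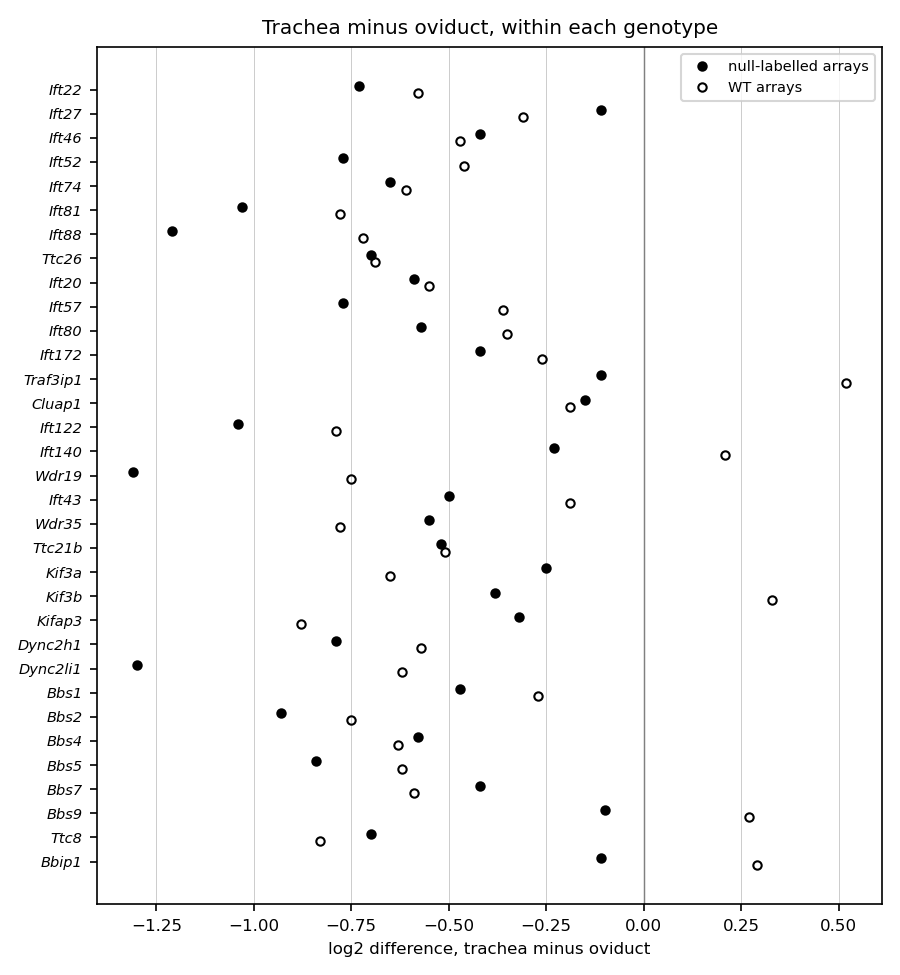
Log2 difference, trachea minus oviduct (horizontal axis), of each of the 33 genes among the null-labelled arrays (filled) and the WT arrays (open). All 33 filled points lie below 0, and 5 open points, led by Traf3ip1 at 0.52, lie above it.

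Genes that act beside the 33 were counted from 2 further lists. Of 19 other IFT and BBS genes 14 were named on the array and 13 passed the filter in each tissue. In trachea 9 were below 0 and 4 above it (median -0.08), where 47.3% of all genes were below 0. In oviduct 10 were below 0 and 3 above it (median -0.16), where 39.7% of all genes were below 0. None was at least 2-fold higher. At least 2-fold lower was 1 gene in each tissue, where 7.74% of all genes were in trachea and 2.75% in oviduct. That gene was Rabl2, which encodes a small GTPase that binds IFT-B: it stood at 7.64 on the null-labelled trachea array and 8.94 on the WT one, and at 8.69 on the null-labelled oviduct array, where its difference from WT was -1.31. Rabl2 was 2.46-fold lower in trachea and 2.47-fold lower in oviduct. Wdr60, a dynein-2 intermediate chain, differed by -0.56 and -0.66, and Tulp3, an adaptor that carries receptors with IFT-A, by -0.23 and -0.55. The BBSome chaperonin-like genes Mkks (0.29 and 0.23), Bbs10 (0.30 and 0.05) and Bbs12 (-0.06 and 0.23) and the shared dynein light chain Dynlrb1 (0.36 and -0.04) were above 0 in 1 or both tissues. Of the other dynein-2 chains, Wdr34 differed by -0.26 and -0.35, Tctex1d2 by -0.35 and -0.16, and Dynll1 by -0.06 and -0.36.

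Transition zone genes, which encode the gate at the base of the cilium, had medians close to those of the 33 genes, -0.41 in trachea and -0.33 in oviduct. Of 19 listed, 17 were named and passed the filter. In trachea 15 were below 0 (47.3% of all genes) and in oviduct 16 (39.7%). Tmem67 stood at 6.48 on the null-labelled and 7.5 on the WT trachea array, and at 7.47 and 8.22 on the null-labelled and WT oviduct arrays. Tctn3 had 7.99 on the null-labelled and 9.20 on the WT oviduct array, the only member of its list past 2-fold there, as Tmem67 was in trachea. Rpgrip1l differed by -0.84 and -0.82.

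Motile cilia genes differed far more on the same arrays. Of 24 axonemal and related genes, 23 passed 2-fold lower in trachea (7.74% of all genes) and 22 did in oviduct (2.75%). Their medians were -2.63 and -2.43, and 0 were higher. Their summed linear signal was 1330 on the null-labelled and 9030 on the WT trachea array, and 1570 and 12200 on those of oviduct, where the 33 IFT and BBSome genes had 5130 and 6950 in trachea and 7770 and 9310 in oviduct. On the null-labelled arrays 14 of the 24 lay below the negative-control median in trachea and 12 in oviduct, so their differences are limited by background. General epithelial genes had a median of -1.38 in trachea and 0.16 in oviduct. IFT and BBSome genes therefore stood between all genes and motile cilia genes in both tissues, and above general epithelial genes in trachea; these medians describe 1 array per group and have no test.

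**Figure D5:**
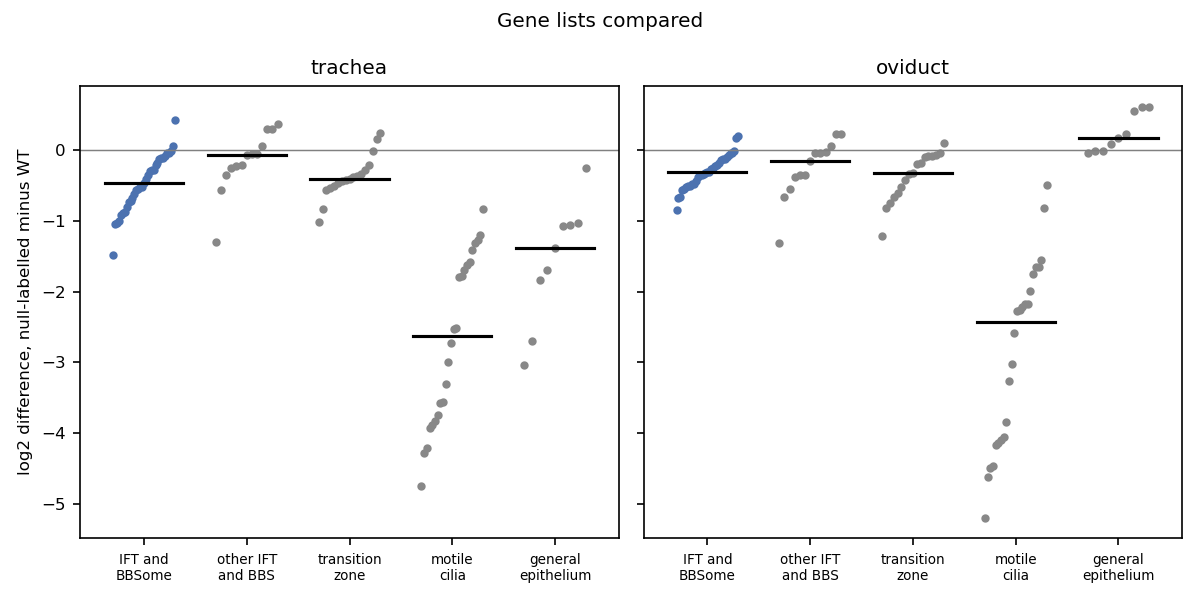
Log2 difference (null-labelled minus WT, vertical axis) of each gene of 5 lists in trachea (left) and oviduct (right); each point is a gene past the filter and each bar the median of its list. Motile cilia genes reach medians of -2.63 and -2.43, and the 33 IFT and BBSome genes -0.47 and -0.32.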

How the data were processed

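The deposited table holds 72688 probe sets on 4 arrays. Per the submitters' processing notes the authors used RMA, which yields log2 signals; no version or settings were stated there. The deposited log2 values carry a second log2, since 2 to their power had 6 significant digits in 100% of cells, so levels are 2 to the power of the deposited value. Gene names came from the platform annotation, updated through a RefSeq gene table of GRCm38.p6 (31258 probe sets, 30702 genes; 1492 probe sets with several genes stayed unnamed), with the probe set of highest mean per gene. A gene passed the filter in a tissue where it reached the array's median (percentile 50) on 1 or both arrays. Negative-control medians came from 5222 probe sets. Array medians were 5.91 to 6.00. The joint fit used limma 3.58.1 in R 4.3.3. A run on simulated data checked only that mean estimates lay near the planted differences, and did not check its p-values. The genes, lists and tests were chosen with earlier results of these data known. Named genes were all 33 and 8 listed regulators. Of other IFT, BBS and transition zone genes, the 3 largest absolute differences in each tissue and any past 2-fold were named. Of each remaining list at most the 3 largest in each tissue were named, and of several lists none. Ovgp1, Wt1, Mkks, Bbs10, Bbs12, Wdr34, Tctex1d2 and Dynll1 fall outside that rule and were chosen after their values were seen. Alternatives covered fold, filter, probe set, centring, background, scale and the fit.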

Additional observations from a re-analysis of the deposited data

Results flagged for a closer look

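The differences of 4 genes ran in opposite directions in the 2 tissues, and the difference between tissues was not tested. Kif3a differed by 0.06 in trachea and -0.35 in oviduct. Kifap3 differed by 0.42 in trachea and -0.14 in oviduct. Bbs2 differed by -0.02 in trachea and 0.16 in oviduct. Bbip1 differed by -0.19 in trachea and 0.20 in oviduct. All of these differences are under 1.5-fold, and each rests on 1 array per group.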

How the results depend on the processing

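The count of IFT and BBSome genes at least 2-fold lower depends on where the line is drawn: 12 in trachea and 3 in oviduct at 1.5-fold, and 0 in trachea at 3-fold. Reading the deposited values as log2 signal without raising 2 to their power gave 0 genes past 2-fold or 1.5-fold in trachea, 0 past 1.5-fold in oviduct, and medians of -0.10 and -0.06. Centring the arrays left the counts past 1.5-fold and 2-fold at the same values. Averaging probe sets or using no level filter could not move them, since each of the 33 genes had 1 probe set and passed the filter. Raising values to the negative-control median could change Bbs5 alone, and the counts stayed the same. With the 75th percentile as filter, 20 genes were left in trachea, 8 past 1.5-fold and 2 past 2-fold, and 25 in oviduct, 2 past 1.5-fold. In the joint fit 0 of 33 passed under each alternative run; at an unadjusted p under 0.05 there were 3 without the tissue block. Raised to background, the trachea difference of Bbs5 was -0.24, and with that stricter filter 2 IFT-A genes were left in trachea, with a median of -0.73. Leaving out an array leaves the joint fit no residual degree of freedom. The labels carry no replicate numbers, so arrays were paired by tissue alone, as the block of the joint fit.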

Other observations

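The E2F pattern TTTNNCGC, read on both strands, occurred in 3 of 29 promoters of IFT and BBSome genes (10.3%), those of Ift27, Ift74 and Kifap3, against 5.17% of all promoters and 6.97% of those of genes past the filter. E2f4, one of the factors that geminin relatives act with, stood at 9.0 and 9.27 on the null-labelled and WT trachea arrays and at 8.61 and 8.63 on those of oviduct. E2f5 stood at 6.59 and 6.99 on the null-labelled and WT trachea arrays and at 7.79 and 7.62 on those of oviduct.

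Of the 33 genes, 13 overlap the span of another gene in the RefSeq table and 6 that of a protein-coding gene, among them Ift74 with Lrrc19, Ift122 with Mbd4, Ift140 with Tmem204 and Dync2h1 with Dcun1d5. The share of all genes with such an overlap was not counted, so these counts do not set the 33 apart. Where the probes lie was not given in the sources used here.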
